A study of Drosophila melanogaster with 9 samples.

Results

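Doc1, Doc2, Doc3, pnr, Hand and Him are transcription regulators of the dorsal and cardiac mesoderm of the Drosophila embryo. They were taken by gene symbol, and each is measured by 1 probe set, so they are 6 of 11982 named genes and 6 of 18769 probe sets tested. The RNA came from cells sorted for green fluorescent protein, with 3 arrays in each of 3 genotypes, from embryos of stage 11 to early stage 12 kept at 25 °C. The CHES-1-like null group was homozygous for Df(1)CHES-1-like1. The jumu deficiency group was homozygous for Df(3R)Exel6157, which the labels call null for jumu. Such a deletion can remove neighbouring genes too. The control group carried neither deletion. All 3 groups carried twi-GAL4 and UAS-2EGFP, which mark cells that express Twist, so the sort was for mesoderm at large and not for the heart alone. In the jumu deficiency the driver and the reporter lie on different homologues, each with the deficiency. The labels do not say that replicates came from separate collections, so each p-value rests on an array-to-array spread that may be technical alone.

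Both deleted genes encode Forkhead proteins, and the study asked how these act in the choice of cardiac progenitor fate. In the fly, Dpp from the dorsal ectoderm and Wingless switch on the Doc genes, which encode closely related T-box proteins, and the GATA factor gene pnr in the dorsal mesoderm. There they act with the homeodomain factor Tinman to set up heart precursors. Doc genes and pnr are also active in the dorsal ectoderm and amnioserosa. Hand encodes a basic helix-loop-helix factor of the heart, the lymph gland and the visceral muscle. Him encodes a small protein that holds back muscle differentiation by inhibiting Mef2.

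Values are log2 signals per probe set, and levels of different probe sets are not comparable. The dimmest of the 6 genes, Doc2, averaged 8.08 over the 9 arrays and was brighter than 69.3% of probe sets, and the brightest, Him, averaged 11.58. A background was read from 125 probe sets for chemoreceptors (odorant and gustatory receptor genes), whose 95th percentile was 5.28, so all 6 lay above it on every array. Arrays of a group correlated at r of 0.998 to 0.999 across probe sets, and replicate 3 of the CHES-1-like null had the lowest array weight. CHES-1-like has a pair of probe sets, and in its null the brighter fell by 7.97 ± 0.13 (SE), to 4.04, while the other fell by 1.80 ± 0.20, to 6.32, which is above the background bound. Those probe sets changed by −0.61 ± 0.13 and −0.53 ± 0.20 in the jumu deficiency, and the first alone passed (limma adjusted p = 0.00557 and 0.0759). The jumu signal fell by 2.39 ± 0.07 in the deficiency, to 8.13, which is also above the bound, and the sources used here do not show whether its probe set lies inside the deleted interval. The mesodermal markers twi, htl and sing were above that bound in all 3 groups, whereas tin, Mef2 and how were not analysed here.

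The 3 Doc genes were higher in both mutants than in controls, except that Doc2 in CHES-1-like null cells did not pass the test. Doc1 read 8.72, 8.65 and 8.61 on the CHES-1-like null arrays, 8.81, 8.75 and 8.87 on the jumu deficiency arrays, and 8.43, 8.44 and 8.40 on the control arrays. Doc2 read 8.03, 8.12 and 7.91 in CHES-1-like null cells, 8.24, 8.28 and 8.31 in the jumu deficiency, and 7.99, 7.87 and 7.94 in controls. For Doc3 the values were 8.34, 8.35 and 8.42 in CHES-1-like null cells, 8.49, 8.44 and 8.55 in the jumu deficiency, and 8.03, 8.07 and 7.96 in controls. All 3 genes were highest in the jumu deficiency and lowest in controls by group mean. No mutant array overlapped a control array for Doc1 or Doc3, whereas for Doc2 the arrays of the CHES-1-like null overlapped those of the control. In bulk RNA, more cells that express a gene and more RNA per cell cannot be told apart.

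**Figure D1:**
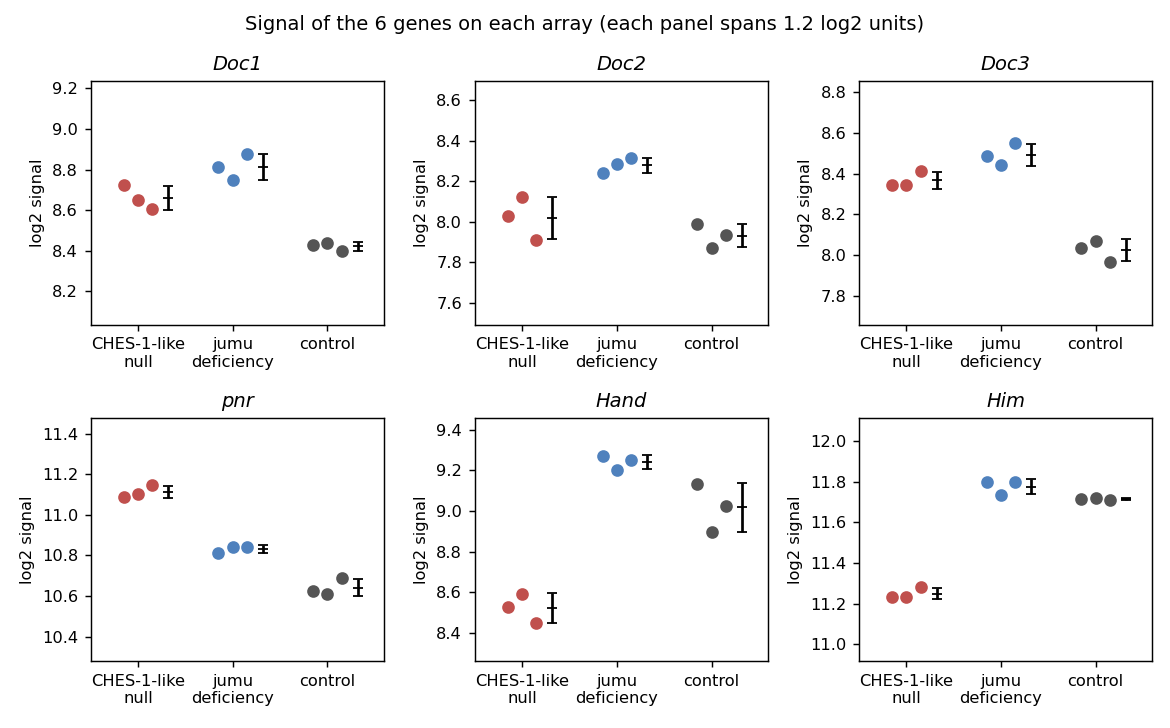
Log2 signal of Doc1, Doc2, Doc3, pnr, Hand and Him on each array. Points are the 3 arrays of the CHES-1-like null, the jumu deficiency and the control, the bar beside them is the mean ± SD (n = 3), and each panel spans 1.2 log2 units. The Doc genes are highest in the jumu deficiency, pnr is highest in CHES-1-like null cells, and Hand and Him are lowest there.

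Doc3 rose in the jumu deficiency by 0.47 ± 0.05 (SE) on the log2 scale, or 38.5%, from limma over all probe sets (adjusted p = 6.07e-05). Doc1 rose by 0.39 ± 0.05 (adjusted p = 0.000216) and Doc2 by 0.35 ± 0.06 (adjusted p = 0.00159), or 31.0% and 27.1%. The 95% intervals of these rises, 0.36 to 0.58, 0.28 to 0.50 and 0.21 to 0.48, overlap, and the differences among the 3 genes were not tested. In the CHES-1-like null Doc3 rose by 0.35 ± 0.05 (adjusted p = 0.000466) and Doc1 by 0.24 ± 0.05 (adjusted p = 0.00466). The Doc2 change was 0.09 ± 0.06, with an interval of −0.05 to 0.22 (limma adjusted p = 0.327). It was 0.04 without replicate 2 of the null (adjusted p = 0.696), 0.14 without its replicate 3 (adjusted p = 0.0923), and 0.06 without control replicate 2 (adjusted p = 0.602).

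Set directly against each other, the mutants differed most clearly for Doc2 among these genes. Doc2 was higher in the jumu deficiency than in CHES-1-like null cells by 0.26 ± 0.06 (SE), with an interval of 0.13 to 0.39 (limma adjusted p = 0.00696). For Doc1 the difference of 0.15 ± 0.05 passed narrowly (adjusted p = 0.0345), and it was lost in 11 of 18 alternatives. Leaving out control replicate 1, 2 or 3, CHES-1-like null replicate 2 or 3, or jumu deficiency replicate 1 or 3 each ended the call, with differences of 0.12 to 0.15 and adjusted p up to 0.117. For Doc3 the difference was 0.12 ± 0.05, with an interval of 0.02 to 0.23 (adjusted p = 0.0746).

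The GATA factor gene pnr was also higher in both mutants, but more so in CHES-1-like null cells. It read 11.09, 11.10 and 11.15 in CHES-1-like null cells, 10.81, 10.84 and 10.84 in the jumu deficiency, and 10.62, 10.61 and 10.69 in controls. The 3 groups did not overlap, and the order was CHES-1-like null, jumu deficiency, control. The rise was 0.47 ± 0.04 (SE) in CHES-1-like null cells, or 38.5% (limma adjusted p = 2.59e-05). The rise was smaller in the jumu deficiency, at 0.19 ± 0.04, or 14.2% (adjusted p = 0.00554), and this call was lost when each array was centred on its median (0.13, adjusted p = 0.054). The jumu deficiency minus the null gave −0.28 ± 0.04 for pnr (adjusted p = 0.000463).

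Hand and Him, which act later in heart and muscle precursors, were lower in CHES-1-like null cells than in both other groups. Hand read 8.53, 8.59 and 8.45 in CHES-1-like null cells, 9.27, 9.20 and 9.25 in the jumu deficiency, and 9.14, 8.90 and 9.02 in controls. It fell by 0.50 ± 0.07 (SE) in CHES-1-like null cells (limma adjusted p = 0.000354), so its linear signal fell by 29.1%, and no array overlapped the controls. Hand was higher in the jumu deficiency by 0.22 ± 0.07 (adjusted p = 0.0262). That call did not hold without jumu deficiency replicate 1 or 3 (adjusted p = 0.0815 and 0.0702), without control replicate 2 or 3 (0.0869 and 0.0655), or after centring on array medians (0.137).

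Him read 11.23, 11.23 and 11.28 in CHES-1-like null cells, 11.80, 11.73 and 11.80 in the jumu deficiency, and 11.71, 11.72 and 11.71 in controls. The null arrays lay apart from all others, while the lowest jumu deficiency array was just above the highest control. Its signal fell by 0.47 ± 0.04 (SE) in CHES-1-like null cells (limma adjusted p = 2.11e-05), so its linear signal fell by 27.6%. The Him change in the jumu deficiency was 0.06 ± 0.04, with an interval of −0.03 to 0.15 (adjusted p = 0.279). Set against each other, the jumu deficiency exceeded the CHES-1-like null by 0.72 ± 0.07 for Hand (adjusted p = 2.07e-05) and by 0.53 ± 0.04 for Him (adjusted p = 5.32e-06). The mesodermal markers htl, an FGF receptor gene, and sing, a myoblast gene, also fell in CHES-1-like null cells, by 0.32 ± 0.07 and 0.50 ± 0.04 (adjusted p = 0.0096 and 1.46e-05). The jumu deficiency had htl higher by 0.53 ± 0.07 and sing lower, at −0.33 ± 0.04 (adjusted p = 0.000473 and 0.000177). Array means over twi, htl and sing were 10.03 to 10.05 in CHES-1-like null cells, 10.48 to 10.52 in the jumu deficiency and 10.33 to 10.40 in controls, and the part of these markers in the values of the 6 genes was not tested.

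**Figure D2:**
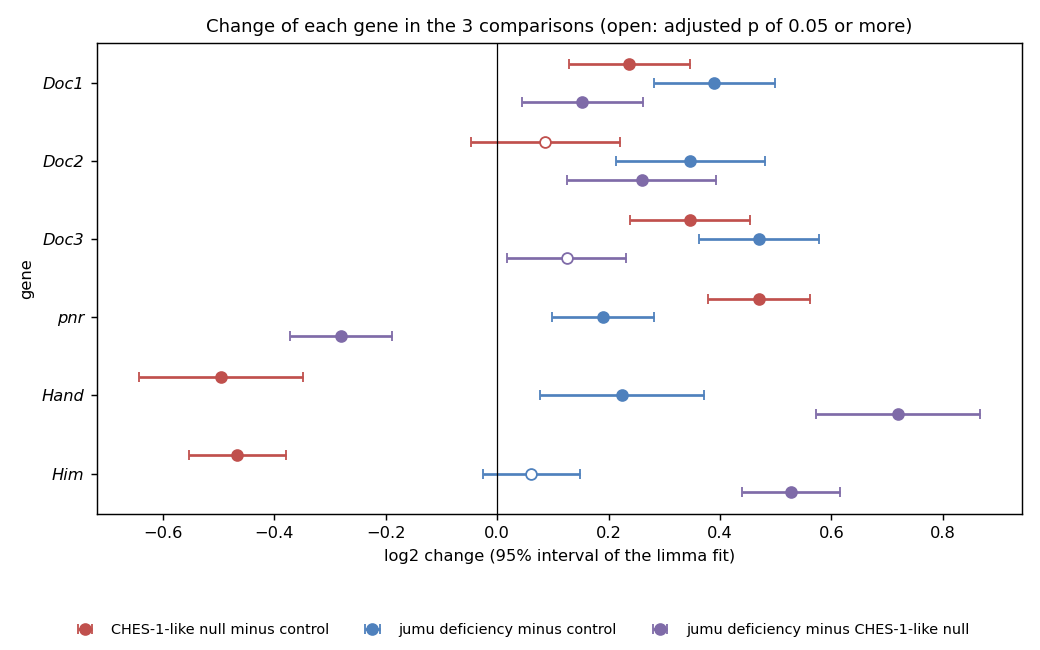
Log2 change of each gene with its 95% interval from the limma fit in CHES-1-like null cells minus control, the jumu deficiency minus control, and the jumu deficiency minus CHES-1-like null. Filled points passed an adjusted p of 0.05 and open points did not. The open points are Doc2 in CHES-1-like null cells, Him in the jumu deficiency and Doc3 between the mutants.

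Many probe sets moved in these comparisons, and the counts of the 6 genes and of the gene lists below are read against that. In the CHES-1-like null 5 of 6 passed, 3 higher and 2 lower, where 29.0% of all probe sets passed, 14.0% higher and 14.9% lower. Among named genes above the background bound, the share was 50.5%. In the jumu deficiency 5 of 6 passed and all 5 were higher, where 32.2% of all probe sets passed (14.8% higher and 17.3% lower), and 51.7% of named genes above the bound. Between the mutants 5 of 6 passed, 4 higher and 1 lower in the jumu deficiency, against 34.4% of all probe sets (16.9% higher and 17.5% lower) and 59.0% of the brighter named genes. Arrays did not overlap for 5, 6 and 6 of the genes in the 3 comparisons, as for 42.7%, 46.8% and 43.6% of all probe sets. Both mutants were compared with the same 3 control arrays, so the rises they share are not independent.

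The median change of the 6 genes was 0.16 in CHES-1-like null cells and 0.29 in the jumu deficiency, where the medians over all probe sets were 0.03 and 0.02. By absolute size, the Hand change in CHES-1-like null cells exceeded that of 93.1% of probe sets, and pnr and Him there exceeded 92.4% and 92.3%. Doc3 exceeded 90.2%, Doc1 86.9% and Doc2 84.5% in the jumu deficiency, whereas Him exceeded 28.8% there. None of the 6 changed by 2-fold in any comparison, and the largest of these 18 differences, that of Hand between the mutants, was 1.65-fold. Centring each array on its median took the share of higher calls in the jumu deficiency to 31.4%, against 46.1% as deposited. Centring left 3 of the 6 genes past the threshold there, the Doc genes.

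**Figure D3:**
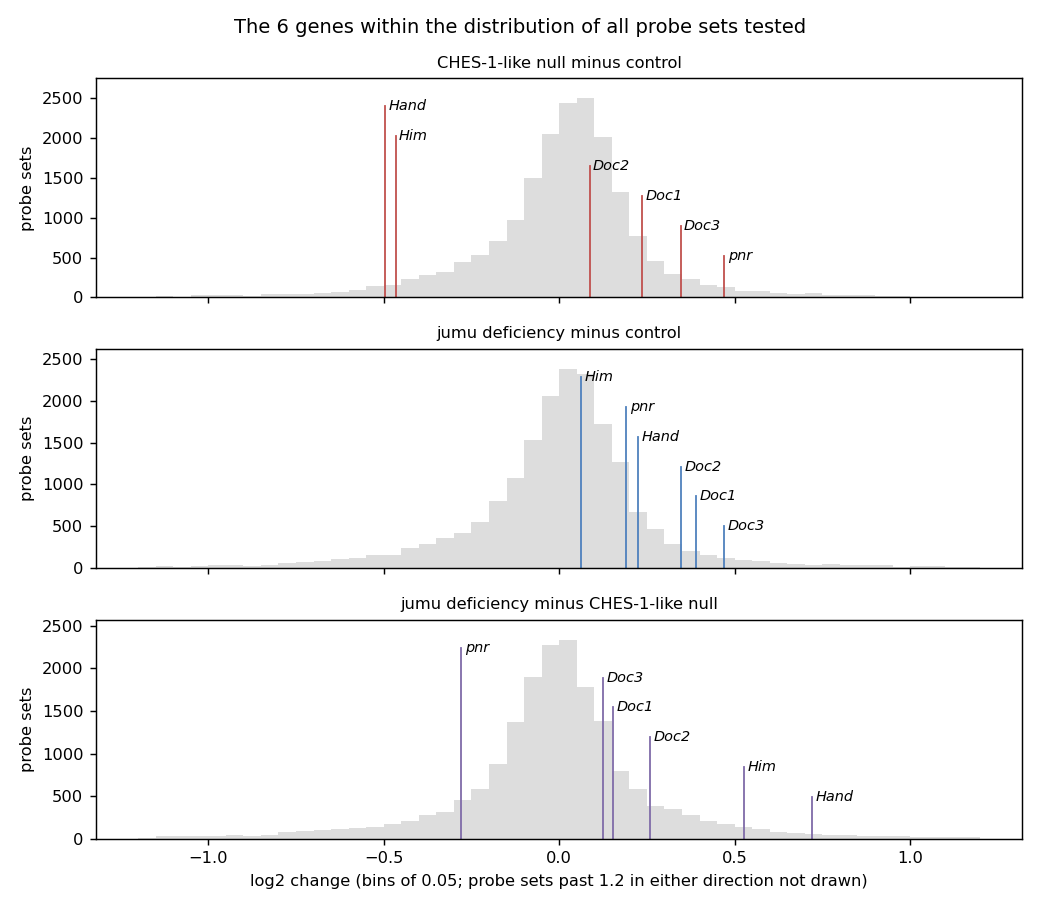
Grey histograms give the number of probe sets by log2 change in each comparison, in bins of 0.05, and lines mark the 6 genes (line height has no meaning). Hand and Him lie in the lower tail of the CHES-1-like null minus control, and the Doc genes in the upper shoulder of the jumu deficiency minus control.

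The other cardiac regulators did not share 1 pattern. Of 11 measured, 4 rose and 1 fell in CHES-1-like null cells, and 3 rose and 2 fell in the jumu deficiency. In the same order, 29.0% and 32.2% of all probe sets passed, and 50.5% and 51.7% of named genes above the bound. The medians of these 11 genes were 0.12 and −0.01, against 0.02 and 0.01 over all named genes. svp, a nuclear receptor gene of the ostial cardioblasts, averaged 9.57 ± 0.21 in CHES-1-like null cells and 10.14 ± 0.03 in controls (SD, n = 3 each). It fell by 0.57 ± 0.09 (SE, limma adjusted p = 0.00129), as Hand and Him did, and both of its further probe sets were also lower (−0.42 and −0.50). Its change in the jumu deficiency was −0.01 ± 0.09 (adjusted p = 0.97), where 1 further probe set did fall, by 0.47 ± 0.14 (adjusted p = 0.0299). The LIM homeodomain gene tup, active in heart and dorsal ectoderm, rose by 0.28 ± 0.06 in CHES-1-like null cells (adjusted p = 0.00508).

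Among the remaining regulators of that list, odd, a pericardial and lymph gland marker, rose by 0.34 ± 0.07 (SE) in CHES-1-like null cells (limma adjusted p = 0.00728) and fell by 0.22 ± 0.07 in the jumu deficiency (adjusted p = 0.0484). The fall ranged from −0.28 to −0.15 over 18 alternatives and was not called in 12 of them. The homeobox gene lbl went the same ways, at 0.25 ± 0.07 and −0.39 ± 0.07 (adjusted p = 0.0228 and 0.00177). Its level in the jumu deficiency was below the background bound, and its rise was not called in 5 of 18 alternatives, where it ranged from 0.19 to 0.29. ush, whose product binds GATA factors such as Pannier, rose by 0.16 ± 0.04 in each mutant (adjusted p = 0.0174 and 0.0156). Over the alternatives ush ranged from 0.13 to 0.17 and from 0.11 to 0.20, and both calls ended after centring and without control replicate 2. Six4, a homeodomain gene of the mesoderm, rose in the jumu deficiency by 0.25 ± 0.05 (adjusted p = 0.00455), and the zinc finger gene zfh1 by 0.15 ± 0.05 (adjusted p = 0.0381). The zfh1 call was lost in 11 of 18 alternatives, with changes of 0.10 to 0.20. The T-box genes mid and H15, eve and lbe did not pass in either mutant, and H15 and lbe lay below the background bound.

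Of 5 other T-box genes 2 passed in CHES-1-like null cells and 1 in the jumu deficiency, and of 4 other GATA genes 1 passed in each. In the same order, 29.0% and 32.2% of all probe sets passed, and 50.5% and 51.7% of named genes above the bound. H15 and byn averaged below that bound over the 9 arrays. With so few genes, no conclusion was drawn from the shares. Among T-box genes other than mid and H15, bi rose by 0.69 ± 0.04 (SE) in CHES-1-like null cells (limma adjusted p = 1.73e-06), and its change in the jumu deficiency was −0.02 ± 0.04. The hindgut regulator byn rose by 0.27 ± 0.06 in CHES-1-like null cells (adjusted p = 0.00902), with a level below the background bound in controls. The visceral founder gene org-1 rose by 0.23 ± 0.05 in the jumu deficiency (adjusted p = 0.00668), a call that centring the arrays ended. Of the GATA genes, grn rose by 0.75 ± 0.10 in CHES-1-like null cells (adjusted p = 0.000399) and GATAd fell by 0.45 ± 0.09 in the jumu deficiency (adjusted p = 0.00417). srp, the GATA gene of blood and fat body precursors, and GATAe did not pass in either mutant.

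Dpp acts upstream of the Doc genes and pnr. Of 14 measured genes of its pathway, 3 rose and 0 fell in CHES-1-like null cells, and 1 rose and 3 fell in the jumu deficiency. In the same order, 29.0% and 32.2% of all probe sets passed, and 50.5% and 51.7% of named genes above the bound. The pathway was thus not called more often than those brighter genes. The ligand gene dpp averaged 9.03 ± 0.14 in CHES-1-like null cells, 8.30 ± 0.26 in the jumu deficiency and 8.50 ± 0.11 in controls (SD, n = 3 each). It rose by 0.53 ± 0.12 (SE) in CHES-1-like null cells (limma adjusted p = 0.0102), and its change in the jumu deficiency was −0.20 ± 0.12 (adjusted p = 0.265). The protease gene tld, which releases Dpp from its antagonist, rose by 0.35 ± 0.08 and fell by 0.48 ± 0.08 in the same order (adjusted p = 0.00891 and 0.00139). The Dpp receptor gene tkv rose by 0.21 ± 0.05 in CHES-1-like null cells (adjusted p = 0.00744).

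A second, dimmer probe set of tkv rose by 1.61 ± 0.08 (SE) in CHES-1-like null cells (limma adjusted p = 7.85e-07) and fell by 0.35 ± 0.08 in the jumu deficiency (adjusted p = 0.00616). The probe sets of tkv therefore disagree in size in the null and in direction in the jumu deficiency, where the brighter read 0.06 ± 0.05. The receptor gene put rose in the jumu deficiency by 0.25 ± 0.06 (adjusted p = 0.0133), a call that centring ended, and Mad, the transcription factor gene of the pathway, fell by 0.21 ± 0.07 (adjusted p = 0.033), a call lost in 7 of 18 alternatives (−0.27 to −0.16). Dad, an inhibitory target of the pathway, did not pass in either mutant (0.10 and 0.07). The Wnt list had 5 measured genes of 18, of which 2 rose and 1 fell in CHES-1-like null cells and 2 rose in the jumu deficiency. Shares over all probe sets were 29.0% and 32.2% in these comparisons, and 50.5% and 51.7% over named genes above the bound.

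Genes of the differentiating heart were set beside these regulators. Of 12 measured, 2 rose and 4 fell in CHES-1-like null cells, and 4 rose and 2 fell in the jumu deficiency. These counts are near the share of named genes above the bound that passed, 50.5% and 51.7%, where 29.0% and 32.2% of all probe sets passed. The pericardial matrix gene prc averaged 5.65 ± 0.16 in CHES-1-like null cells, 7.96 ± 0.12 in the jumu deficiency and 5.95 ± 0.01 in controls (SD, n = 3 each), a rise of 2.01 ± 0.08 (SE) in the jumu deficiency (limma adjusted p = 1.58e-07). loh, another gene of the heart matrix, rose there by 0.93 ± 0.06 (adjusted p = 4.28e-06) and fell by 0.26 ± 0.06 in CHES-1-like null cells (adjusted p = 0.0118). The guidance gene NetB went the same ways as Hand, at −0.37 ± 0.06 in CHES-1-like null cells and 0.24 ± 0.06 in the jumu deficiency (adjusted p = 0.000778 and 0.00781), and centring ended the rise. Others of the list went differently. In the same order, mspo fell by 0.45 ± 0.08 and 0.39 ± 0.08 (adjusted p = 0.00167 and 0.00372). shg changed by 0.14 ± 0.04, a call lost in 9 of 18 alternatives, and by −0.27 ± 0.04 (adjusted p = 0.0331 and 0.000764). In CHES-1-like null cells Tl rose by 0.24 ± 0.04 (adjusted p = 0.00193), while its dimmer probe set fell by 0.18 ± 0.05 (adjusted p = 0.0264).

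Of 6 measured genes tied to Him or to undifferentiated muscle precursors, 1 rose in CHES-1-like null cells, and 2 rose and 2 fell in the jumu deficiency. In the same order, 29.0% and 32.2% of all probe sets passed, and 50.5% and 51.7% of named genes above the bound. The gene that rose in CHES-1-like null cells was sna, at 0.13 ± 0.04 (limma adjusted p = 0.0473). That call was lost in 11 of 18 alternatives, with changes of 0.10 to 0.16. twi, the mesodermal determinant that drives the sorting marker, changed by −0.15 ± 0.05 (SE) in CHES-1-like null cells (limma adjusted p = 0.0566), whereas in the jumu deficiency it rose by 0.18 ± 0.05 (adjusted p = 0.0236), a call lost in 7 of 18 alternatives (0.12 to 0.20). sna, its partner in the early mesoderm that also serves neuroblasts, fell by 0.79 ± 0.04 in the jumu deficiency (adjusted p = 1.04e-06). gro, whose product is a corepressor, did not pass in either mutant. Hesr, the gene next to Him on the X chromosome, changed by 0.09 ± 0.07 in CHES-1-like null cells (adjusted p = 0.366) while Him fell.

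**Figure D4:**
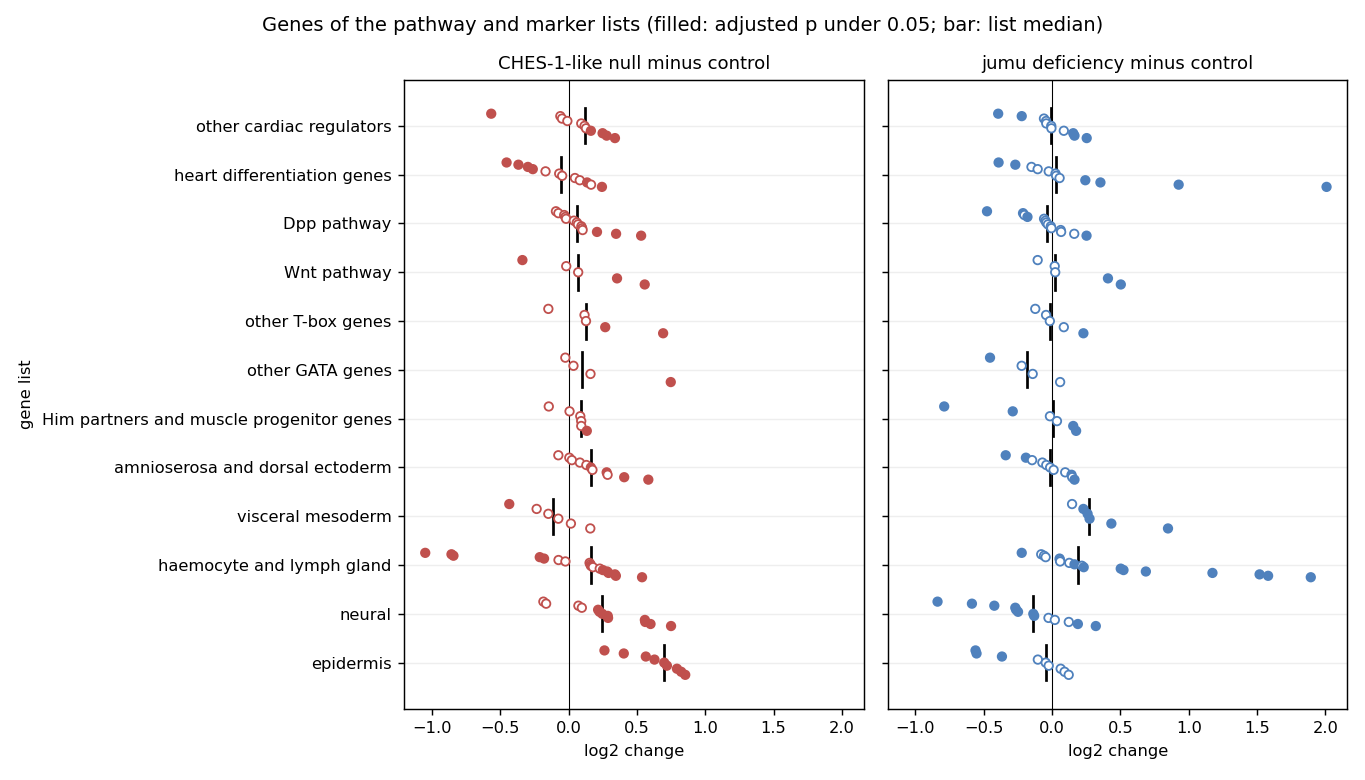
Log2 change of each measured gene, by list, in CHES-1-like null cells minus control and the jumu deficiency minus control. Filled points passed an adjusted p of 0.05, open points did not, and the black bar is the list median. All 9 epidermis genes are higher in CHES-1-like null cells, whereas 5 of 6 visceral mesoderm genes are higher in the jumu deficiency. Among the latter, Alk lies below the background bound in every group.

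Markers of other cells moved in the same arrays, and the Doc genes, pnr and Hand are also active in some of these cells. In the CHES-1-like null 4 of 11 amnioserosa and dorsal ectoderm genes rose and 0 fell. Of all probe sets 29.0% passed there, and of named genes above the bound 50.5%. The genes that rose were peb at 0.58 ± 0.05 (SE, limma adjusted p = 1.36e-05), Kr at 0.41 ± 0.06 (adjusted p = 0.000636), and tup and ush, given above as cardiac regulators. The mean log2 signal of that list per array was 9.09 to 9.16 in CHES-1-like null cells, 8.89 to 8.95 in the jumu deficiency and 8.92 to 8.95 in controls. The amnioserosa determinant gene zen lay below the background bound in all groups. All 9 epidermis genes rose in CHES-1-like null cells, with array means of 10.35 to 10.38, against 9.71 to 9.73 in controls. Of 13 neural genes 9 rose and 0 fell there, with array means of 9.73 to 9.83, against 9.51 to 9.53 in controls. Hand is also active in the visceral muscle and the lymph gland. The visceral mesoderm list and the haemocyte and lymph gland list were therefore read in CHES-1-like null cells too. Of 6 visceral mesoderm genes 0 rose and 1 fell, HLH54F, a regulator of the caudal visceral mesoderm, at −0.43 ± 0.04 (adjusted p = 3.46e-05), with array means of 7.80 to 7.83, against 7.89 to 7.98 in controls. Of 18 haemocyte and lymph gland genes 7 rose and 5 fell, with a median change of 0.16, against 0.02 over all named genes. The falls included the crystal cell genes lz at −1.05 ± 0.07, PPO2 at −0.86 ± 0.04 and PPO1 at −0.84 ± 0.05 (adjusted p up to 4.44e-06). The level of lz in CHES-1-like null cells was below the background bound. Among the rises was Pvr, at 0.50 to 0.56 over the 18 alternatives, with no call lost. The array means of the blood list were 9.47 to 9.49, against 9.49 to 9.51 in controls. The part of all these markers in the rises of pnr, Doc1 and Doc3 or in the falls of Hand and Him was not tested.

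The jumu deficiency differed, since 2 of the 11 amnioserosa and dorsal ectoderm genes rose and 2 fell. Of all probe sets 32.2% passed there, and of named genes above the bound 51.7%. The epidermis list had 0 higher and 3 lower genes there, with array means of 9.54 to 9.59, and the neural list had 2 higher and 8 lower. Visceral mesoderm genes rose in 5 of 6 cases, led by the determinants bap at 0.85 ± 0.06 (SE) and bin at 0.43 ± 0.04 (limma adjusted p = 6.65e-06 and 3.24e-05). Alk, also counted as higher, lay below the background bound in every group, and its call was lost in 10 of 17 alternatives. The org-1 call ended after centring, as given above. In the haemocyte and lymph gland list 9 of 18 rose and 1 fell. Array means were 8.26 to 8.33 for the visceral list and 9.94 to 9.98 for the blood list there. The part of these cells in the Doc and Hand values was not tested. RNA quality was read from the 3′ minus 5′ signal of 4 control transcripts on the array. For actin it averaged 0.94 in CHES-1-like null cells, 1.26 in the jumu deficiency and 1.04 in controls, and for eIF-4a 1.15, 1.35 and 1.07 in the same order. For 18S it averaged 0.81, 0.76 and 0.95, and for GAPDH 0.08, 0.42 and 0.34. The jumu deficiency thus had the highest mean for actin, eIF-4a and GAPDH and the lowest for 18S. For actin and eIF-4a its arrays lay above all others (lowest 1.23 and 1.31, against at most 1.05 and 1.21). For GAPDH and 18S its arrays overlapped those of another group. The part of these differences in the results was likewise not tested.

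Each of the 6 genes was also set against its neighbours along the chromosome. The Doc genes lie close together on chromosome arm 3L, pnr is on 3R, Hand on 2L and Him on X, by the order of genes in the RefSeq annotation (Release 6 plus ISO1 MT). CG5194, which lies between Doc3 and Doc2, was below the background bound and did not pass in either mutant. On the outer sides, CG5087 next to Doc3 did not pass in either mutant, and the arginine kinase gene Argk1, the nearest measured gene beyond Doc1, fell by 0.64 in CHES-1-like null cells and by 0.72 in the jumu deficiency (limma adjusted p = 3.11e-06 and 8.74e-07). The nearest measured genes to pnr, GATAe and Jhbp4, did not pass in CHES-1-like null cells (adjusted p = 0.698 and 0.198), while Jhbp4 rose by 0.29 in the jumu deficiency at a level below the bound. Beside Hand, Ufd4, CG13138 and CG5390 also fell in CHES-1-like null cells, by 0.15, 0.52 and 0.22 (limma adjusted p = 0.0179, 0.000839 and 0.0157). CG34043, Utx and CYLD did not pass there. In the jumu deficiency CG5390 and CG34043 rose (0.95 and 0.24), while CG13138 and CYLD fell (−0.90 and −0.44). CG13138 and CG34043 lay below the bound. Of the 25 distinct measured neighbours of the 6 genes, up to 3 on each side, 3 rose and 5 fell in CHES-1-like null cells, and 3 rose and 6 fell in the jumu deficiency. Over all probe sets, 29.0% and 32.2% passed in these comparisons.

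Across the 9 arrays, Hand and Him had like profiles (Pearson's r = 0.95), as did Doc1 and Doc3 (r = 0.96). Doc1 and Doc2 correlated at 0.85, Doc2 and Doc3 at 0.75, and pnr and Him at −0.85. These values describe 9 arrays in 3 clusters and mainly restate the group means. Taken as deviations from the group means, Hand and Him correlated at −0.14 and Doc1 and Doc3 at 0.34, whereas the highest values among the 15 pairs were 0.771 for Doc2 and Hand and 0.745 for Doc3 and Him. With 3 arrays a group these within-group values are imprecise.

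Among 7622 named genes above the background bound, those most like each of the 6 over the 9 arrays were sought. For Doc1 they were CG44325, CG11807 and Grip75, a gamma-tubulin complex gene, with r of 0.996, 0.993 and 0.989. Doc2 was most like Cdk8, a Mediator kinase gene, gukh and Prat2, at 0.983, 0.980 and 0.979. Doc3 was most like the myosin phosphatase gene Mbs, the nuclear transport gene Ntf-2 and CG7739, at 0.991 each. For pnr they were CG34224, botv, which serves heparan sulfate synthesis, and the lysozyme gene LysX, at 0.990, 0.989 and 0.985. Hand was most like beat-IIIc, CG9143 and CG15717, at 0.990, 0.987 and 0.986. Him was most like CG3702, the crystal cell prophenoloxidase gene PPO2 and AIF, at 0.997 each. None of these 18 genes belongs to the cardiac lists. The sizes differed, since PPO2 fell by 0.86 in CHES-1-like null cells while Him fell by 0.47, and LysX rose by 2.69 while pnr rose by 0.47. The bound was applied to the mean over the 9 arrays. LysX averaged 7.10 in CHES-1-like null cells, but 4.41 in controls and 5.15 in the jumu deficiency, both below the bound. Prat2 lay below it in CHES-1-like null cells and controls (5.21 and 5.12).

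**Figure D5:**
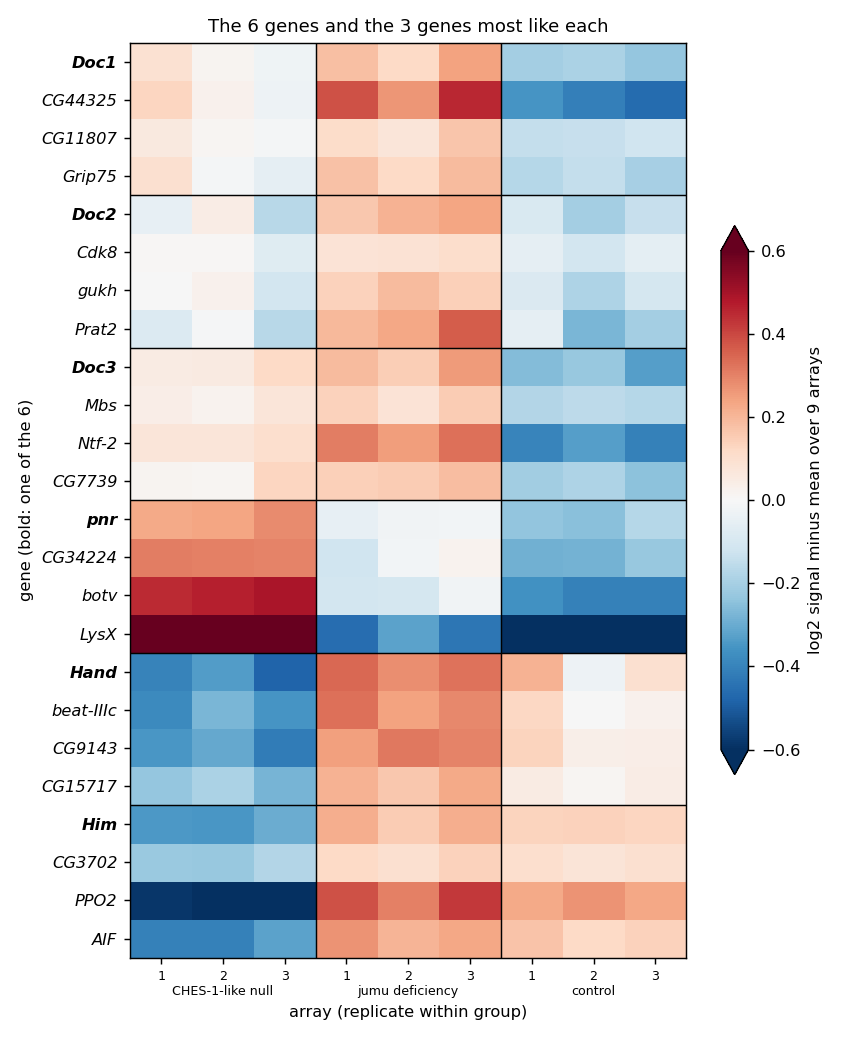
Log2 signal minus its mean over the 9 arrays for the 6 genes (bold) and the 3 genes most like each, in the 3 arrays of the CHES-1-like null, the jumu deficiency and the control. Colours stop at 0.6 in either direction. Rows of a block share the order of the groups but not the size of the differences, as LysX beside pnr shows. LysX lies below the background bound in controls and in the jumu deficiency.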

How the data were processed

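The authors deposited log2 signals per Affymetrix probe set for 9 arrays, with array medians of 5.41 to 5.50. Per the submitters' processing notes the R package affy was used, with settings not given in the sources used here. Array signals can flatten near background, so changes of dim genes may be understated, which was not tested here. Depth is set by the number of arrays, 3 per group.

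Array controls (183 of 18952 probe sets) were left out. Probe sets with 1 annotated gene (13647) were named through the gene identifier, and each gene is represented by its brightest probe set. A limma 3.58.1 model (R 4.3.3; lmFit, eBayes) held 1 mean per group over all 9 arrays, with 6 residual degrees of freedom and Benjamini-Hochberg adjustment over 18769 probe sets and a threshold of 0.05. The fit was tested on simulated data. The 6 genes and the 13 gene lists (107 of 132 symbols measured) were chosen with earlier results of these data known. Named genes are the 6, the deleted genes, list members (at most 4 of smallest p in each list and comparison, and all other cardiac, T-box and GATA genes), the 3 genes most like each, and 3 measured neighbours on each side. Same-numbered replicates did not deviate together (r from −0.14 to 0.15), so they were not paired. No sequences are shown.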

Additional observations from a re-analysis of the deposited data

How the results depend on the processing

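The 6 genes were refitted under 18 alternatives, of which 9 leave out 1 array each. The others were quantile normalization, centring on array medians, leaving out the dimmest 40%, the replicate block, only the 2 groups compared, a robust variance trend, array weights, a threshold of 0.01 and the mean of a gene's probe sets. No change of the 6 genes reversed in these. In the CHES-1-like null 5 genes passed in all 18. In the jumu deficiency 4 or 5 passed, except that 3 did after centring, and between the mutants 4 to 6 passed. With the replicate block 5, 5 and 4 passed in the 3 comparisons, and Doc1 between the mutants was lost (0.15, adjusted p = 0.0658). The Doc3 difference between the mutants passed with quantile normalization, without dim probe sets and with array weights (adjusted p = 0.0487, 0.0349 and 0.046). Why calls changed was not tested.

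Leaving out single arrays moved Hand in the CHES-1-like null between −0.56 and −0.44, Him between −0.48 and −0.46 and pnr between 0.45 and 0.49. In the jumu deficiency Doc3 moved between 0.44 and 0.50 and Hand between 0.16 and 0.28. With 3 arrays a group, the intervals of Doc2 in the CHES-1-like null (−0.05 to 0.22) and of Him in the jumu deficiency (−0.03 to 0.15) span no change.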
